A study of Mus musculus with 6 samples.

Results

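The transcripts of 10 genes of neutrophils and inflammatory myeloid cells were examined in sorted fractions of a mouse lung tumour: S100a8, S100a9, Lcn2, Ngp, Camp, Ltf, Mpo, Csf3r, Fpr2 and Il1b. Members were the probe sets that the array's annotation assigns to one of these genes alone. Each gene had 1 such probe set, so the members were 10 of the 18193 genes measured in this way and 10 of the 45101 probe sets in the deposited table. The tumours grew under the skin of syngeneic mice from 344SQ cells, a lung adenocarcinoma line derived from a KrasLA1/+; p53R172HdelG/+ mouse, so both fractions carry these alleles. Tumour cells were sorted by flow cytometry on CD133, the surface glycoprotein encoded by Prom1. RNA of the CD133 high fraction was measured on 3 arrays and RNA of the CD133 low fraction on 3 arrays. All tumours came from this single line, the labels give no age or sex of the hosts, and they name sorting on CD133 alone, with no step that removes host leukocytes. The series concerns a metastasis-prone cell population sensitive to Notch inhibition, and the comparison here asks how neutrophil and inflammatory myeloid transcripts lay in the 2 sorted fractions.

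Neutrophils are short-lived leukocytes of the innate immune system that mature in the bone marrow and enter tumours from the blood. They store antimicrobial proteins in granules whose genes are switched on at successive stages of maturation, with myeloperoxidase early and lactoferrin, lipocalin 2 and cathelicidin later. Mature cells follow formyl peptides and chemokines into tissue, answer granulocyte colony-stimulating factor, and release the calcium-binding proteins S100A8 and S100A9 and, like macrophages and monocytes, interleukin-1 beta. In bulk RNA of this kind, fewer cells of a type and less RNA of a gene per cell cannot be told apart.

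The 3 CD133 high arrays did not lie together. The bacterial hybridisation controls, added to each sample before hybridisation, averaged log2 values of 10.18, 11.05 and 10.81 on CD133 high replicates 1, 2 and 3, and lay between 9.94 and 10.28 on the CD133 low arrays. The control probe set at the 3' end of Gapdh differed from that for its middle part by −0.13, 0.44 and 0.46 on CD133 high replicates 1, 2 and 3, and by −0.09 to −0.07 on the CD133 low arrays. Median log2 values lay between 6.65 and 6.77 on the CD133 high arrays and between 6.60 and 6.70 on the CD133 low arrays. Prom1 was above all CD133 low arrays on each of the 3 CD133 high arrays, with a difference of 0.79 (SE 0.26, limma adjusted p = 0.297). On the hybridisation and Gapdh controls replicate 1 lay near the CD133 low arrays, and replicates 2 and 3 lay above them. As the CD133 high arrays differed so, tests of the 10 genes and counts over related gene lists are given with and without replicate 1. Without it, the fraction and these controls cannot be told apart.

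S100a8 and S100a9 encode the 2 chains of calprotectin, an abundant protein of the neutrophil cytosol that acts as an inflammatory signal when released. S100a9 had log2 values of 14.05, 12.50 and 11.68 on CD133 high replicates 1, 2 and 3, against 13.64, 13.43 and 13.43 on CD133 low replicates 1, 2 and 3. Replicate 1 of the CD133 high fraction was thus the highest of the 6 arrays and the other two were the lowest, while the CD133 low arrays lay close together. S100a8 had values of 14.09, 13.87 and 12.82 on CD133 high replicates 1, 2 and 3, against 13.93, 13.82 and 13.54 on the CD133 low arrays. Here replicate 2 fell inside the range of the CD133 low arrays, and replicate 3 alone was below it. The brightest probe set of each array had a value between 14.05 and 14.29, so S100a8 was close to the top of the measured range, where an array responds less to a further increase. The partners of calprotectin therefore kept the same order over the CD133 high arrays, with gaps of 0.74 for S100a8 and 1.97 for S100a9 between replicate 1 and the mean of replicates 2 and 3.

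Lcn2, Ngp, Camp and Ltf encode proteins of the secondary, or specific, granules. Lcn2 encodes lipocalin 2, which withholds iron from bacteria by binding their siderophores and is also made by epithelia. Its log2 values were 13.14, 10.46 and 10.09 on CD133 high replicates 1, 2 and 3, against 12.50, 12.12 and 11.90 on the CD133 low arrays. The gap of 2.87 between CD133 high replicate 1 and the mean of replicates 2 and 3 was the widest of the 10 genes. Ngp, which encodes neutrophilic granule protein, a relative of the cathelicidins and cystatins, had 12.68, 10.81 and 10.54 on the CD133 high arrays, against 12.16, 12.05 and 11.81 on the CD133 low arrays. Ltf, the gene of the iron-binding protein lactoferrin, had 10.35, 8.42 and 8.29 on the CD133 high arrays, against 9.39, 9.09 and 9.10 on the CD133 low arrays. In these 3 genes replicate 1 lay above, and replicates 2 and 3 below, every CD133 low array. Camp, which encodes the cathelicidin antimicrobial peptide, departed from them, with 9.83, 9.70 and 8.91 on the CD133 high arrays against 9.25, 9.39 and 8.69 on the CD133 low arrays. For Camp both replicate 1 and replicate 2 were above all CD133 low arrays, and replicate 3 was within their range.

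**Figure D1:**
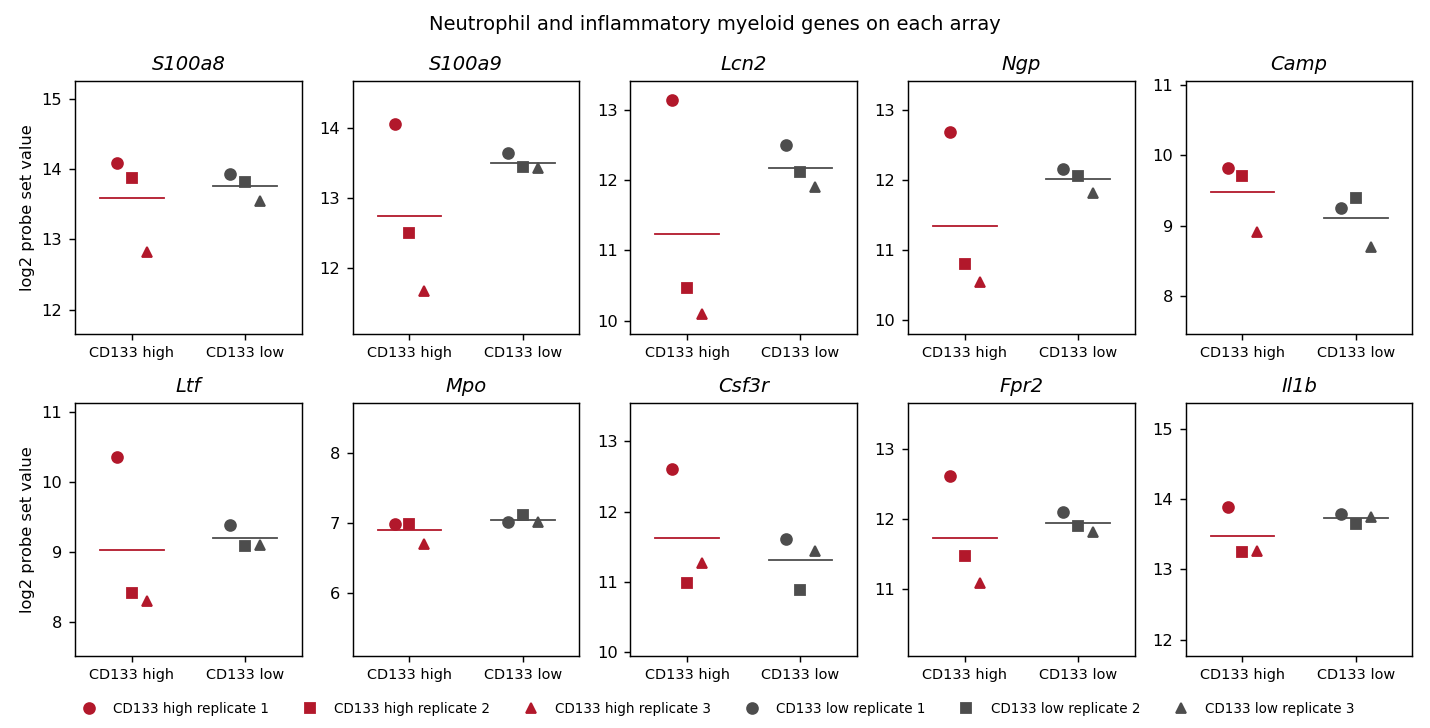
Log2 probe set value (vertical axis, the same span in each panel) of the 10 genes on the 3 CD133 high and the 3 CD133 low arrays, with a line at the mean of each fraction and a symbol for each replicate. CD133 high replicate 1 is the highest array for every gene but Mpo, and the CD133 low arrays lie closer together than the CD133 high arrays for all 10 genes.

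The promoters of these 4 granule genes are shown because Lcn2, Ngp and Ltf moved together over the arrays whereas Camp did not. Secondary granule genes are known targets of C/EBP factors, in particular C/EBP epsilon. Each sequence is the 250 bases before the transcription start in RefSeq on GRCm38.p6, read in the direction of the gene, and capitals mark each match to the letters TTGCNNAA on either strand, a form of the C/EBP motif chosen with the sequences and the array values in view.
Lcn2 (chr2:32387740-32387989, minus strand): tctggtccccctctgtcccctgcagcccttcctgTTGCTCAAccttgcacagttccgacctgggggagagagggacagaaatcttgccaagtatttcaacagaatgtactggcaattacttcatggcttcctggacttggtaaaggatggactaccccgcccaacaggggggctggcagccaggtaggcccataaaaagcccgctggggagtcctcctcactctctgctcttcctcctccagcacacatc
Ngp (chr9:110419558-110419807, plus strand): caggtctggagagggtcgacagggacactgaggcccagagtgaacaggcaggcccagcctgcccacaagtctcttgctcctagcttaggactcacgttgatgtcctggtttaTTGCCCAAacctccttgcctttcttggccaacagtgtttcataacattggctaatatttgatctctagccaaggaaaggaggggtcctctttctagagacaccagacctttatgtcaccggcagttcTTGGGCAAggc
Ltf (chr9:111019042-111019291, plus strand): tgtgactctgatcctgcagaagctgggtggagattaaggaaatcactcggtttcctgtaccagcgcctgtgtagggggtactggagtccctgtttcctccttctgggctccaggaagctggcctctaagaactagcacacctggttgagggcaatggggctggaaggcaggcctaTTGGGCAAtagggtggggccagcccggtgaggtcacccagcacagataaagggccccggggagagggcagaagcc
Camp (chr9:109849457-109849706, minus strand): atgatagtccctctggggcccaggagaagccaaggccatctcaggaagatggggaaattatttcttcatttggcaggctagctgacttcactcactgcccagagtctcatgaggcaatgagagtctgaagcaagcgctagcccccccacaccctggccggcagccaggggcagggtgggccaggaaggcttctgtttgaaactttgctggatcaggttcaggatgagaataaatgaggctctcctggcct
All 10 genes had a promoter in the RefSeq table. Matches to the motif stood in the windows of Lcn2, Ngp, Ltf and S100a9, which is 4 of 10, beside 9.56% of 32851 promoters of the same length. Ngp had 2 matches and each of the others 1. The form was chosen with the array values in view, so neither the count nor the lack of matches in Camp is a test. S100a9, Fpr2 and Il1b had the array order of Lcn2, Ngp and Ltf, and of these Fpr2 and Il1b had 0 matches. Whether the motif goes with the array order was not tested. The letters GAGGAA on either strand, a core of the PU.1 motif, stood in 6 of the 10 windows, beside 23.3% of all promoters. These matches describe letters in a window and say nothing about binding, which was not measured here.

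Mpo encodes myeloperoxidase, the enzyme of the primary granules that is transcribed in promyelocytes of the marrow. It had log2 values of 6.99, 6.99 and 6.70 on CD133 high replicates 1, 2 and 3, against 7.01, 7.11 and 7.01 on the CD133 low arrays. Mpo was the only one of the 10 genes whose fractions did not overlap, with CD133 high lower, as in 10.5% of all probe sets. Its difference was −0.15 (SE 0.19, adjusted p = 0.692 from limma), and its values lay near the median of the arrays throughout. Of the other primary granule genes, Prtn3, which encodes proteinase 3, had 7.07, 7.24 and 6.48 on CD133 high replicates 1, 2 and 3, against 7.31, 7.43 and 7.30 on the CD133 low arrays. Like Mpo, Prtn3 was below all CD133 low arrays on each CD133 high array, and it did not pass (difference −0.42, SE 0.24, limma adjusted p = 0.411). Elane and Ctsg were chosen after their values were seen, and in both the fractions overlapped. Elane, the gene of neutrophil elastase, lay between 5.20 and 5.82 on the CD133 high arrays and between 5.44 and 6.03 on the CD133 low arrays. Ctsg, which encodes cathepsin G, lay between 3.27 and 4.28 on the CD133 high arrays and between 3.10 and 4.89 on the CD133 low arrays. In Mpo, Prtn3 and Elane CD133 high replicate 1 was not above all CD133 low arrays, nor was it in Ctsg.

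Csf3r and Fpr2 encode surface receptors. Csf3r, the receptor for granulocyte colony-stimulating factor, had log2 values of 12.61, 10.98 and 11.27 on CD133 high replicates 1, 2 and 3, against 11.60, 10.88 and 11.44 on the CD133 low arrays. Replicate 1 was the highest array, and replicates 2 and 3 lay within the range of the CD133 low arrays. Fpr2, a receptor for formyl peptides and other chemoattractants, had 12.62, 11.47 and 11.09 on the CD133 high arrays, against 12.11, 11.90 and 11.81 on the CD133 low arrays. Its order was that of S100a9, with replicate 1 above and replicates 2 and 3 below all CD133 low arrays.

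Il1b encodes interleukin-1 beta, a cytokine that is made as a precursor and cleaved by caspase-1 in the inflammasome. Its log2 values were 13.89, 13.25 and 13.27 on CD133 high replicates 1, 2 and 3, against 13.79, 13.64 and 13.75 on the CD133 low arrays. The order was again replicate 1 highest and replicates 2 and 3 lowest, over a narrower span of 0.63 between replicate 1 and the mean of the other two, near the top of the range.

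Across the 10 genes CD133 high replicate 1 lay above all CD133 low arrays in 9, all but Mpo, beside 29.8% of all probe sets. In 7 of the 10 both replicates 2 and 3 lay below all CD133 low arrays, beside 26.2% of all probe sets. Replicate 1 was the highest of the 6 arrays in 9 genes, beside 16.7% of all probe sets, and replicate 3 the lowest in 7, beside 25.9%. Both sides of the CD133 low arrays were met by S100a9, Lcn2, Ngp, Ltf, Fpr2 and Il1b, 6 of the 10, beside 6.87% of all probe sets. The medians over the 10 genes, relative to the mean of the CD133 low arrays, were 0.68, −0.48 and −0.88 on CD133 high replicates 1, 2 and 3, whereas over all probe sets they were 0.02, 0.06 and −0.02. The SD over the CD133 high arrays exceeded that over the CD133 low arrays in all 10 genes and in 74.1% of all probe sets, with medians of 0.83 in CD133 high and 0.17 in CD133 low for the 10 genes and of 0.44 in CD133 high and 0.23 in CD133 low for all probe sets. With quantile normalization or equal array medians, the counts of 9, 7 and 6 genes were the same, and with equal array 75th percentiles they were 9, 6 and 6.

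**Figure D2:**
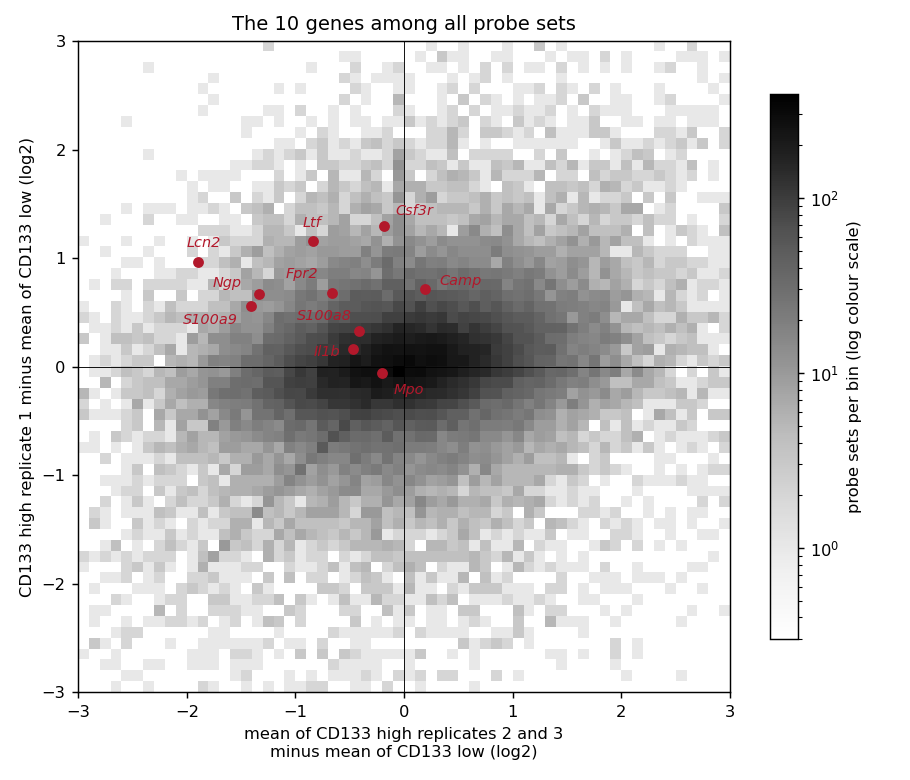
Each of the 10 genes (red) by the mean of CD133 high replicates 2 and 3 (horizontal axis) and by CD133 high replicate 1 (vertical axis), both minus the mean of the CD133 low arrays on the log2 scale, over a count of all probe sets in grey on a logarithmic colour scale. Of the 10 genes, 8 lie at the upper left, with replicate 1 above and replicates 2 and 3 on average below the CD133 low mean, and Camp and Mpo lie outside it.

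None of the 10 genes passed the test between the fractions with all 6 arrays. In limma 0 of 10 had an adjusted p under 0.05, beside 0.182% of all probe sets, with 0.0155% higher and 0.167% lower. At an unadjusted p under 0.05 the count was also 0 of 10, beside 15.7% of all probe sets. Of the differences, 8 were negative and 2, those of Camp and Csf3r, positive, with a median of −0.19 over the 10 genes and of 0.02 over all probe sets. The widest difference was that of Lcn2, with a mean ± SD of 11.23 ± 1.67 for CD133 high and 12.17 ± 0.30 for CD133 low (n = 3 arrays each), a difference of −0.94 (SE 0.76, limma adjusted p = 0.535). S100a9 had a mean of 12.74 ± 1.21 for CD133 high and 13.50 ± 0.12 for CD133 low, with a difference of −0.75 (SE 0.56, limma adjusted p = 0.50). For all 10 genes the adjusted p lay between 0.50 and 0.881. The standard errors ran from 0.19 for Mpo to 0.76 for Lcn2, on a scale where a difference of 1 is a change of 2-fold.

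Without CD133 high replicate 1, 6 of the 10 genes were lower in the CD133 high fraction past the threshold, beside 11.8% of all probe sets, and 0 were higher, beside 9.5%. Lcn2 fell by 1.90 (SE 0.21, adjusted p = 0.0055 from limma), Ngp by 1.33 (SE 0.15, adjusted p = 0.0056) and Ltf by 0.83 (SE 0.14, adjusted p = 0.0148). S100a9 fell by 1.41 (SE 0.25, adjusted p = 0.0172 from limma), Il1b by 0.47 (SE 0.11, adjusted p = 0.0357) and Fpr2 by 0.66 (SE 0.16, adjusted p = 0.0383). These are the same 6 genes in which replicate 1 lay above, and replicates 2 and 3 below, all CD133 low arrays. The test without replicate 1 reads the position of replicates 2 and 3, so this match is no separate support. Replicate 1 lay above all CD133 low arrays also in S100a8, Camp and Csf3r. The other members, S100a8, Camp, Mpo and Csf3r, differed by −0.42, 0.19, −0.20 and −0.18 and did not pass, with limma adjusted p of 0.401, 0.690, 0.473 and 0.621. With CD133 high replicate 1 alone against the CD133 low arrays, all but Mpo were positive, from 0.16 for Il1b to 1.30 for Csf3r. A lone array has no spread of its own, so only the differences are given for it. Of the 6 ways of leaving out a single array, only the one without CD133 high replicate 1 gave a call for any of the 10 genes. Over all 45037 probe sets that way gave 9603 calls in limma. Leaving out CD133 high replicate 2 gave 1 call over all probe sets, and leaving out CD133 high replicate 3 or any CD133 low array gave 0. Replicates 2 and 3 were also the arrays with the higher hybridisation controls and the higher Gapdh 3' end. The tests without replicate 1 therefore cannot tell the fraction from these properties of the arrays. With the mean of the hybridisation controls as a covariate, the differences of S100a8, S100a9, Lcn2, Ngp, Ltf, Fpr2 and Il1b turned positive, from 0.13 for S100a8 to 1.14 for Ltf. Csf3r had a difference of 1.5 with the covariate (SE 0.17, limma adjusted p = 0.0673), the nearest of the 10 genes to the threshold there, against 0.31 without the covariate. With the covariate 0 of 10 genes passed in limma, beside 61 of 45037 probe sets. An unadjusted p under 0.05 was reached by 2, Csf3r and Ltf, beside 2059 probe sets higher and 1470 lower. The covariate mainly sets replicates 2 and 3 apart from the other arrays, so its fit leans on replicate 1 for the CD133 high fraction. It therefore cannot separate hybridisation from whatever else differs in replicates 2 and 3. The part of RNA quality in these differences was not tested.

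**Figure D3:**
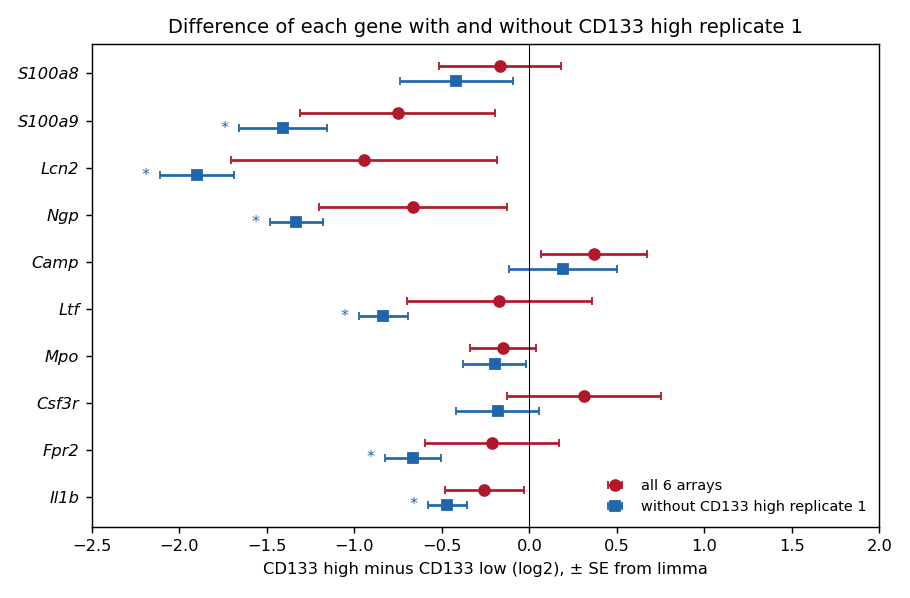
Log2 difference, CD133 high minus CD133 low, for each of the 10 genes, with standard errors from limma, over all 6 arrays (red circles) and without CD133 high replicate 1 (blue squares). Asterisks mark the 6 genes with an adjusted p under 0.05, all in the comparison without that array, where the differences run from −1.90 for Lcn2 to 0.19 for Camp.

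The label of the group was checked against defining markers of neutrophils. Of 10 such markers 7 were measured: Csf3r, Ngp, Camp and Ltf among the members, and Cxcr2, Mmp8 and Cd177 besides. None was listed at 0 on any array. The members among them belong to the group itself and are no separate check of it. In limma 0 of the 7 passed with all arrays. At an unadjusted p under 0.05 the count was also 0, beside 3319 of 18193 genes. Without replicate 1, 5 were lower, beside 14.6% of all genes. Cxcr2, the neutrophil receptor for the CXC chemokines, had log2 values of 10.45, 7.05 and 7.20 on CD133 high replicates 1, 2 and 3, against 9.11, 8.94 and 8.82 on the CD133 low arrays. Mmp8, the neutrophil collagenase, had 11.73, 10.79 and 10.55 on the CD133 high arrays, against 11.40, 11.33 and 11.26 on the CD133 low arrays. Cd177, a neutrophil surface glycoprotein, had 11.22, 9.21 and 8.96 on the CD133 high arrays, against 10.44, 9.89 and 10.09 on the CD133 low arrays. All 3 had replicate 1 above and replicates 2 and 3 below every CD133 low array, the order of S100a9 and Lcn2. Of the markers among the members, Ngp and Ltf had this order, and Csf3r and Camp did not.

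Other neutrophil genes were counted in lists by function, each gene by its brightest probe set. Beside the counts that follow, replicate 1 was above all CD133 low arrays in 28.7% of 18193 genes, and replicates 2 and 3 were both below them in 29.2%. Without replicate 1, 14.6% of genes passed as lower and 11.7% as higher, and with all arrays 0.231% and 0.022%. An unadjusted p under 0.05 in limma with all arrays was reached by 3319 of the 18193 genes. Of 18 measured granule proteins other than the members, replicate 1 was above all CD133 low arrays in 12 and replicates 2 and 3 were below them in 13. With all arrays 0 of the 18 passed in limma, and 2 reached an unadjusted p under 0.05. Without replicate 1, 9 passed as lower and 0 as higher. The one closest to the threshold was Slpi, the gene of the secretory leukocyte protease inhibitor, which epithelia also make. Slpi had 12.04, 11.62 and 11.50 on CD133 high replicates 1, 2 and 3, against 13.09, 13.27 and 13.39 on the CD133 low arrays, a difference of −1.53 (SE 0.20, limma adjusted p = 0.0578). It was below all CD133 low arrays on every CD133 high array, as Mpo was among the 10 genes, and without replicate 1 it fell by 1.69 (SE 0.13, limma adjusted p = 0.0026). Serpinb1a, an inhibitor of neutrophil proteases, was also below all CD133 low arrays on each CD133 high array, with a difference of −1.14 (SE 0.31, limma adjusted p = 0.285) that was −1.48 without replicate 1 (SE 0.17, limma adjusted p = 0.0060).

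Of 23 neutrophil surface receptors, replicate 1 was above all CD133 low arrays in 21 and replicates 2 and 3 were below them in 19. The list median was 0.48, −0.78 and −0.87 on CD133 high replicates 1, 2 and 3. With all arrays 0 of the 23 passed in limma, 1 had an unadjusted p under 0.05, and 13 passed as lower without replicate 1. Among them Pirb, an inhibitory receptor of myeloid cells, had 10.53, 8.53 and 8.74 on the CD133 high arrays, against 10.30, 10.10 and 10.24 on the CD133 low arrays. The receptor with the unadjusted p under 0.05 was Itgb2l, with a difference of −0.66 (SE 0.26, limma adjusted p = 0.308). Itgb2l departed from the order of Pirb, with 7.22, 7.62 and 6.82 on the CD133 high arrays, each below all CD133 low arrays. The 5 measured subunits of the NADPH oxidase, which makes superoxide, all had replicates 2 and 3 below the CD133 low arrays, and 2 of them had replicate 1 above. Ncf4, a cytosolic subunit, had 12.28, 10.32 and 10.32 on the CD133 high arrays, against 12.17, 12.04 and 11.90 on the CD133 low arrays. Cyba, Cybb and Rac2 had smaller p in limma than Ncf4. In them replicate 1 lay below the CD133 low mean, by −0.18, −0.28 and −0.06, and Cybb was below all CD133 low arrays on each CD133 high array. Of the 5 subunits, 0 passed in limma with all arrays, 2 had an unadjusted p under 0.05, and 3 were lower without replicate 1.

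Among 9 transcription factors of granulocytes, replicate 1 was above all CD133 low arrays in 5 and replicates 2 and 3 were below them in 6. Myb, a factor of progenitor cells, had values of 5.52, 6.44 and 5.49 on CD133 high replicates 1, 2 and 3, against 7.40, 7.57 and 7.12 on the CD133 low arrays, with a difference of −1.54 (SE 0.32, limma adjusted p = 0.187) that was −1.40 without replicate 1 (SE 0.33, limma adjusted p = 0.0364). Of the 9 factors, 0 passed in limma with all arrays, 3 had an unadjusted p under 0.05, and without replicate 1, 2 were lower. The 3 were Myb, Gfi1 and Irf8, each below all CD133 low arrays on every CD133 high array, as in 10.5% of all probe sets. Gfi1 had a difference of −0.99 (SE 0.34) and Irf8 of −0.63 (SE 0.22), both with a limma adjusted p of 0.297. Cebpb, a C/EBP factor of inflammatory myeloid cells, had values of 13.83, 13.84 and 13.87 on the CD133 high arrays, against 13.48, 13.46 and 13.62 on the CD133 low arrays, and did not pass (difference 0.33, SE 0.16, limma adjusted p = 0.353), nor did it without replicate 1 (limma adjusted p = 0.0944).

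Attractants and growth factors of neutrophils had replicate 1 above all CD133 low arrays in 14 of 16 and replicates 2 and 3 below them in 4, and the medians over the list were 0.58, −0.03 and 0.09 for CD133 high replicates 1, 2 and 3. The sign for replicate 2 depended on the scaling, with a median of 0.07 after quantile normalization, 0.00 with equal array 75th percentiles and −0.15 with equal array medians. Cxcl5, a chemokine of epithelial cells that acts on Cxcr2, had 9.70, 9.34 and 10.02 on the CD133 high arrays, against 8.88, 9.11 and 9.08 on the CD133 low arrays, a difference of 0.66 (SE 0.20, limma adjusted p = 0.297, and 0.0884 without replicate 1). Cxcl15, a CXC chemokine of lung epithelium, had 5.77, 6.74 and 8.84 on the CD133 high arrays, against 5.43, 4.89 and 4.52 on the CD133 low arrays. Its difference was 2.17 with all arrays (SE 0.75, limma adjusted p = 0.297) and 2.85 without replicate 1 (SE 0.66, limma adjusted p = 0.0341). Cxcl12 had 11.98, 12.77 and 12.90 on the CD133 high arrays, against 11.98, 12.12 and 12.05 on the CD133 low arrays. Its replicate 1 was just below, and its replicates 2 and 3 were above, all CD133 low arrays. The difference of Cxcl12 was 0.50 (SE 0.26, limma adjusted p = 0.369) and 0.79 without replicate 1 (SE 0.11, limma adjusted p = 0.0084). Csf3, the ligand of Csf3r, had 9.12, 8.30 and 8.47 on the CD133 high arrays, against 8.48, 7.82 and 8.11 on the CD133 low arrays. Of the 16 genes, 0 passed in limma with all arrays, 2 had an unadjusted p under 0.05, and without replicate 1, 2 were higher and 2 lower.

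Genes around interleukin-1 were divided. In 14 of 20 replicate 1 was above all CD133 low arrays, and in 12 replicates 2 and 3 were below them. Nlrp3, the sensor of the inflammasome that activates caspase-1, had 13.14, 13.14 and 13.38 on CD133 high replicates 1, 2 and 3, against 12.77, 12.58 and 12.83 on the CD133 low arrays, a difference of 0.50 (SE 0.17, limma adjusted p = 0.297). Its adaptor Pycard had 11.28, 10.24 and 9.67 on the CD133 high arrays, against 11.81, 11.92 and 11.45 on the CD133 low arrays. Casp1, the protease that cleaves the precursor of interleukin-1 beta, had 9.12, 8.50 and 8.50 on the CD133 high arrays, against 9.26, 9.51 and 9.35 on the CD133 low arrays. In each of the 3 the fractions did not overlap, with Nlrp3 above and Pycard and Casp1 below in the CD133 high fraction, as for 20.8% of all probe sets in either direction. Il33, an alarmin of the interleukin-1 family, had 10.73, 11.17 and 11.52 on the CD133 high arrays, against 10.32, 10.37 and 10.47 on the CD133 low arrays. Without replicate 1 these 4 passed in limma, Nlrp3 and Il33 as higher (adjusted p = 0.0437 and 0.0096) and Pycard and Casp1 as lower (adjusted p = 0.0074 and 0.0088). Of these 20 genes, 0 passed in limma with all arrays, 6 had an unadjusted p under 0.05, and without replicate 1, 2 were higher and 10 lower. Inflammatory targets of NF-kappaB had replicate 1 above all CD133 low arrays in 14 of 15 and replicates 2 and 3 below them in 7, with 0 past the threshold in limma, 0 that reached an unadjusted p under 0.05, and 2 lower without replicate 1.

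Of 13 genes of the S100 family and its receptors other than the members, in 2 replicate 1 was above all CD133 low arrays, in 5 replicates 2 and 3 were below them, and in 0 both held. Whether this list differs from the 10 genes was not tested. The medians over the list were −0.25, −0.13 and −0.48 for CD133 high replicates 1, 2 and 3. In limma 0 of the 13 passed with all arrays, 4 had an unadjusted p under 0.05, and 3 were lower without replicate 1. Among 12 genes of iron and lipocalin handling, 7 had replicate 1 above all CD133 low arrays and 2 had replicates 2 and 3 below them. In limma 0 of those 12 passed with all arrays, 1 had an unadjusted p under 0.05, and without replicate 1, 1 was higher and 2 were lower.

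**Figure D4:**
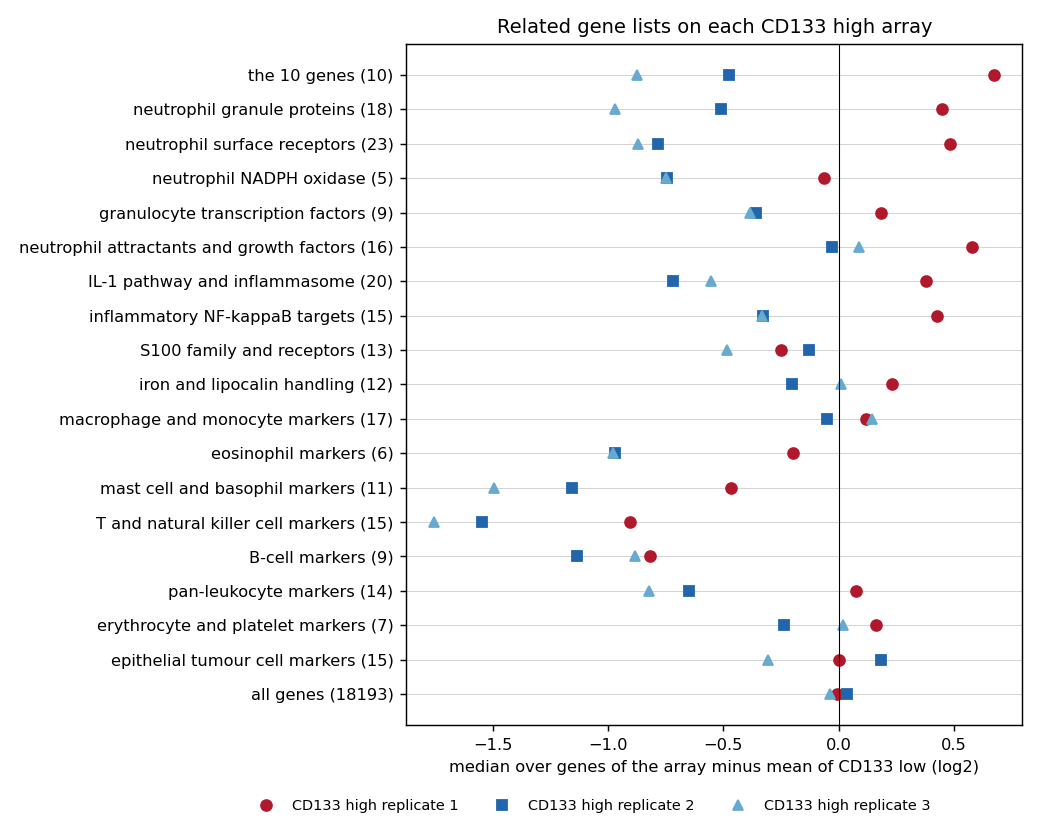
Median over the genes of each list (number of genes in brackets) of the log2 value on CD133 high replicates 1, 2 and 3 minus the mean of the CD133 low arrays. Neutrophil granule and surface genes lie right of 0 on replicate 1 and left of 0 on replicates 2 and 3, T and natural killer cell and B-cell markers lie left of 0 on all 3 arrays, and macrophage markers lie near 0.

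Markers of other cells were read beside the 10 genes. As sums of values taken back to the linear scale, the 10 genes had 80148, 39901 and 28529 on CD133 high replicates 1, 2 and 3, and 51617 to 61807 on the CD133 low arrays. The 14 measured pan-leukocyte markers had sums of 84858, 55165 and 48311 on the CD133 high arrays, and 79160 to 80020 on the CD133 low arrays. Pan-leukocyte sums were thus also lower on replicates 2 and 3, and on replicate 1 the excess over the CD133 low arrays was smaller than for the 10 genes. In limma 0 of the 14 passed with all arrays, 3 had an unadjusted p under 0.05, and without replicate 1, 2 were higher and 8 lower. The 17 macrophage and monocyte markers had sums of 68493, 63526 and 65878 on the CD133 high arrays, and 63051 to 67326 on the CD133 low arrays, so the ranges of the fractions overlapped. Their median differences were 0.12, −0.05 and 0.14 on replicates 1, 2 and 3, and 0 of them passed in limma with all arrays, while 6 reached an unadjusted p under 0.05. Without replicate 1, 4 of the 17 passed as higher and 4 as lower.

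The 15 T and natural killer cell markers had sums of 3449, 2872 and 2478 on the CD133 high arrays, and 7656 to 9837 on the CD133 low arrays. Here replicate 1 was above all CD133 low arrays in 0 of 15 genes, and Cd5, Cd8b1, Cd3e, Cd2 and Cd3g fell with all arrays, which is 5 of 15. Cd5, a surface protein that dampens signals of the T-cell receptor, had a difference of −2.30 (SE 0.19, limma adjusted p = 0.0186). Without replicate 1, 1 of the 15 passed as higher and 10 as lower. Among 9 B-cell markers replicate 1 was above all CD133 low arrays in 0, and Cd79b, Cd79a and Ms4a1 fell with all arrays, which is 3 of 9, and without replicate 1, 1 was higher and 5 were lower. The lymphocyte markers were therefore lower on the same replicate 1 on which 9 of the 10 neutrophil and inflammatory genes were highest, and whether these lists differ from the 10 genes was not tested. Mast cell and basophil markers and eosinophil markers had medians of −0.47 and −0.20 on replicate 1, with 2 of 11 and 2 of 6 genes above all CD133 low arrays there. In these 2 lists 0 genes passed in limma with all arrays, and 8 mast cell and basophil markers and 3 eosinophil markers reached an unadjusted p under 0.05. Without replicate 1, 1 mast cell and basophil marker passed as higher and 7 as lower, and 0 eosinophil markers as higher and 4 as lower. Erythrocyte and platelet markers had 0 of 7 genes past the threshold in limma, while 1 reached an unadjusted p under 0.05, and 2 were lower without replicate 1. The 15 epithelial markers had sums of 27921, 25786 and 20470 on the CD133 high arrays and 22370 to 25653 on the CD133 low arrays, with 0 past the threshold in limma, 2 at an unadjusted p under 0.05, 3 higher and 2 lower without replicate 1, and Esrp1 listed at 0 on 5 of the 6 arrays. The part of these cell types in the values of the 10 genes was not tested.

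The genes most like the mean profile of S100a8 and S100a9 over the 6 arrays were sought among 18183 genes. Likeness was the root mean square difference between log2 values after each gene's own mean was subtracted. The nearest was Mcemp1, a mast cell-expressed membrane protein that also stands in the list of granule proteins, with a difference of 0.0975, beside a median of 0.662 over all genes. Mcemp1 had 11.27, 10.08 and 9.43 on CD133 high replicates 1, 2 and 3, against 10.85, 10.75 and 10.57 on the CD133 low arrays. Lgals4, Gm94, Akr1cl and Sfi1 followed, with differences of 0.123, 0.125, 0.125 and 0.127. S100a8 and S100a9 each lay at 0.256 from their own mean profile, so a gene near that profile need not be like either. Among the other members Fpr2 was nearest to it, at 0.203, followed by Ngp at 0.309 and Ltf at 0.351. Lcn2, with its wider span, was farthest at 0.590. With 6 arrays and this many genes, a close profile may come from the number of genes searched, and the likeness is a description.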

How the data were processed

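RNA of sorted tumour fractions was hybridised as biotinylated cRNA to Affymetrix mouse arrays, per the labels' protocols. The deposited table holds log2 values per probe set, a unit read from their range. The summary and normalization that the authors applied are not stated in the labels. No detection calls were used, and no depth applies to arrays, whose number limits the precision.

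Groups came from the sorted fraction in the labels. Replicates were numbered in accession order and pair no samples. No label ties the arrays to separate animals or sorts, so p-values reflect only the scatter among these arrays, part or all of which could be technical.

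Of 45101 probe sets, 64 array controls were left out. The remaining 45037 were fitted with limma 3.58.1 in R 4.3.3 (lmFit, eBayes with variance trend, two-sided, Benjamini-Hochberg over 45037, threshold 0.05). Differences are CD133 high minus CD133 low. No filter, covariate or added normalization was used. An exact permutation test of 3 against 3 cannot pass 0.05 and was not used. Probe sets were named from the platform annotation (34945 with 1 gene, 932 with several, 9160 unnamed), and related lists used each gene's brightest probe set, with 221 of 257 listed genes measured in 17 lists. Named genes were all members, list genes past the threshold, up to 4 per list with the smallest p, defining neutrophil markers, and the 5 most alike genes. The members, lists and motif were chosen with earlier results of these data known. The fit was tested on simulated data in which both fractions varied as the CD133 low arrays do. That setting lacks the wider spread of the CD133 high arrays, so it does not show how the fit behaves under it.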

Additional observations from a re-analysis of the deposited data

How the results depend on the processing

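Over 170 results, the differences of the 10 genes under 17 alternatives each, 144 kept their direction and their side of the threshold, 20 changed sign and 6 passed the threshold, all 6 without CD133 high replicate 1. The count of members past the threshold was 0 with every scaling, floor, filter, variance model, weighting and covariate tried. It ranged from 0 to 6 when single arrays were left out. At an unadjusted p under 0.05 in limma it was 4 of 10 with array weights, beside 7003 probe sets higher and 7489 lower of 45037. With the covariate it was 2 of 10 at that unadjusted p, beside 2059 higher and 1470 lower. Sign changes with the hybridisation control covariate gave 0.13 (S100a8), 0.42 (S100a9), 0.89 (Lcn2), 0.58 (Ngp), 1.14 (Ltf), 0.61 (Fpr2) and 0.19 (Il1b). The same covariate gave 1.5 for Csf3r (limma adjusted p = 0.0673), against 0.31 with the main settings. With CD133 high replicate 1 alone they gave 0.33 (S100a8), 0.56 (S100a9), 0.97 (Lcn2), 0.67 (Ngp), 1.15 (Ltf), 0.68 (Fpr2) and 0.16 (Il1b). Array weights gave −0.042 for Csf3r. When single arrays were left out the differences ranged over −0.42 to 0.22 (S100a8), −1.41 to −0.22 (S100a9), −1.90 to −0.37 (Lcn2), −1.33 to −0.26 (Ngp), 0.16 to 0.65 (Camp), −0.83 to 0.19 (Ltf), −0.20 to −0.055 (Mpo), −0.18 to 0.63 (Csf3r), −0.66 to 0.10 (Fpr2) and −0.47 to −0.15 (Il1b). Genes of the related lists past the threshold numbered 8 with the main settings and 2 with values below 5 set to 5. They numbered 13 with the dimmest 50% of probe sets left out, 1 without a variance trend and 61 with array weights. Unmoderated there were 0, while 2297 probe sets were higher and 2462 lower at an unadjusted p under 0.05 in ordinary t-tests. With the covariate there were 3, with each gene averaged over its probe sets 14, and with single arrays left out 0 to 103. Over all probe sets, 7 were higher and 75 lower in limma with the main settings, 2133 and 2675 with array weights, 4277 and 5326 without CD133 high replicate 1, and 1 and 6 without a variance trend. The hybridisation control covariate mainly sets CD133 high replicates 2 and 3 apart, so its sign changes are no separate evidence from those with replicate 1 alone. The cause of these shifts was not tested. The scaling of array positions was compared after seeing the data. Values near the top of the scale, such as S100a8, and near the array median, such as Mpo, limit the changes that can be seen. No paired analysis was possible because the labels number no replicates.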
